A study of Homo sapiens with 8 samples.

Results

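In 8 ribosome profiling libraries of the ovarian cancer cell line OVCAR3, 154 of 20165 gene regions carried an unusual share of their footprint counts in the 3′ UTR, the stretch of an mRNA after the stop codon. A region is the merged model of one or more overlapping transcripts. The 154 were chosen by a rule on their own counts summed over the 8 libraries: at least 50 counts in the 3′ UTR, at least 5% of the counts of the 5′ UTR, coding sequence and 3′ UTR together lying in the 3′ UTR, and under 20% lying in the 5′ UTR. Their levels and shares are therefore a description and are not tested. Another 433 regions also had at least 50 counts in the 3′ UTR but did not meet the rest of the rule, and they serve as the comparison below.

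There were 4 groups of 2 libraries, all harvested after 48 h. In the first experiment OVCAR3 cells carried lentiviral, doxycycline-inducible constructs, and under 1 µg/ml doxycycline endogenous RACK1 was knocked down while wild-type RACK1 (RACK1-WT) or RACK1 mutated at its sites of mono(ADP-ribosyl)ation (RACK1-Mut) was expressed. RACK1 sits on the head of the 40S subunit. In the second experiment cells were transfected with 30 nM of control siRNA (siControl) or of siRNA against TARG1 (siTARG1), the ADP-ribose hydrolase encoded by OARD1. The study's methods describe its sequencing experiments as repeated on independent samples, and the labels do not say how the 2 libraries of a group relate. The libraries held 3100947 to 6604190 coding counts and 32192 to 68517 3′ UTR counts each, so that the 3′ UTR took 0.666% to 0.807% of the counts in the RACK1 experiment and 1.11% to 1.87% in the siRNA experiment. Coding counts of OARD1 were 138 and 58 in siControl and 7 and 6 in siTARG1 libraries, and RACK1 was lower in RACK1-Mut than in RACK1-WT (log2 fold change -0.42, SE 0.0601, DESeq2 adjusted p = 1.34e-08). RACK1 was also lower in siTARG1 than in siControl (log2 fold change -0.25, SE 0.0688, DESeq2 adjusted p = 0.00297). Its counts do not separate endogenous from introduced RACK1. All 10 ovarian carcinoma markers examined, such as PAX8 and MUC16, had at least 10 coding counts in every library, with a sum of 7072 to 11942 CPM (coding counts scaled to the library total). For 9 of 10 markers of blood, vessel, connective tissue, liver, muscle and glial cells a region was found, with a sum of 31.8 to 58.1 CPM. CD3E was at 0 throughout, whereas 2 of these markers also had at least 10 coding counts in every library. They were COL1A1, with 58 to 231 counts, and GFAP, with 21 to 89.

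A ribosome normally lets go of the mRNA at the stop codon, so few footprints are found beyond it. Counts in a 3′ UTR can arise when ribosomes read through the stop, restart further on, or translate an exon that the annotation does not call coding. They can also arise from fragments that no ribosome made: small nuclear and nucleolar RNAs are folded into protein particles that shield them from RNase, and reads of an abundant mRNA align equally well to a retrocopy, a processed copy of that mRNA inserted elsewhere in the genome. Counts per region do not tell where in the 3′ UTR a read lies.

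The first sequences to look at are those that the 3′ UTRs share with small RNAs. Each line is a window of the 3′ UTR in the GRCh37 reference, written 5′ to 3′, and the capitals mark bases that also occur, as an exact run, in the small RNA named after it.

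TMC5 (chr16:19510037-19510066, plus strand, shared with RNU4-1, a U4 small nuclear RNA): agcgCTGGCAATTTTTGACAGTCTCTACGG
PLCG2 (chr16:81995527-81995556, plus strand, shared with RN7SK, the 7SK RNA): gatcGGATGTGAGGGCGATCTGGCTGCGAC
ZNF354B (chr5:178311735-178311764, plus strand, shared with RNU1-14P, a copy of U1 small nuclear RNA): gattACCATGATCACGAAGGTGGTTTTCCC
TPT1 (chr13:45910557-45910586, minus strand, shared with another copy of the small nucleolar RNA SNORA31): gaaaATGCATCTATTTGACAGACCTGGAGC

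The next are shared with the coding sequence of another gene, and the capitals mark bases that occur there as an exact run.

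EDARADD (chr1:236647659-236647688, plus strand, shared with ENO1): tgctGATCTGAGCGCTTGGCCAAGTACAAC
CLEC2D (chr12:9848488-9848517, plus strand, shared with NPM1): tgacGAGGAAGCTGAAGAAAAAGCGCCAGT
TRMT5 (chr14:61439084-61439113, minus strand, shared with HMGN2): atctGCGAGGTTGTCTGCTAAACCTGCTCC
ARF3 (chr12:49297388-49297417, minus strand, shared with RPL32): caagAAAACAAAGCACATGCTGCCCAGTGG

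The last are stop codons, in capitals, with the bases around them. MDH1 and LDHB are known readthrough genes and are not among the 154. In both, the stop TGA is followed by CTA, the sequence known to favour readthrough. TNPO2, PTPA and CTDSP2, which are among the 154 and share no window of the kinds above, end in TAG. They were picked after their values were seen and are not typical in this. Where none of the features described below was found, 55.7% of the 88 readable stops were TGA and 23.9% TAG.

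MDH1 (chr2:63834104-63834133, plus strand): tttctttcctctgccTGActagacaatgat
LDHB (chr12:21788464-21788493, minus strand): gacctaaaagacctgTGActagtgagctct
TNPO2 (chr19:12812148-12812177, minus strand): gctttctatggggtcTAGgtgatcatggag
PTPA (chr9:131909726-131909755, plus strand): cctgtcacgtcgggcTAGgaggggccaagc
CTDSP2 (chr12:58217373-58217402, minus strand): cagctgcgggcccctTAGcctgccctgctt

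The 154 regions held 223476 of the 396896 3′ UTR counts of the series (56.3%), and the counts were very unevenly spread among them. TMC5 alone held 103809, which is 46.5% of the counts of the 154. The 6 regions with the most counts, which include TMC5, CTC1, EDARADD, CLEC2D and a region known here only by its transcript ENST00000604646, held 84.1%. The median region had 122.5 counts, 67 regions had fewer than 100 and 146 had at least 1 count in every library. The 3′ UTR share ran from 5.03% to 100%, with a median of 13.8%. It was at least 50% in 21 regions, from 10% to 50% in 75 and under 10% in 58. The regions just inside the rule were FRMD8 and MIEN1 with 50 counts each, SEC14L1 and NXPH4 with shares of 5.03%, and SMIM11 and LMO3 with 5′ UTR shares of 19.9% and 19.4%. Just outside lay MICA and CEP89 with 48 and 47 counts, the merged EEF1G and TUT1 region and PIGQ with shares of 4.998% and 4.96%, and ARMCX6 and ITGB1BP1 with 5′ UTR shares of 21.5% and 21.9%.

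The regions were sorted by what their 3′ UTR sequence and annotation hold, and the first match in the order given here counted. A small RNA lay in 7 regions, either annotated there on the same strand or matched by a 26-base word, and these 7 held 113637 counts or 50.8% of those of the 154. Another 16 shared at least 10 such words with the coding sequence of a gene elsewhere that had at least as many coding counts, and these held 36163 counts (16.2%). In 36 the 3′ UTR overlapped a coding sequence of a later annotation, for 11215 counts (5.02%). In 6 the 3′ UTR of the counting annotation could not be rebuilt from the later one, for 47913 counts (21.4%), nearly all of them in CTC1 and ENST00000604646. None of these features was found for the remaining 89 regions, which held 14548 counts (6.51%). Words found in more than 3 protein-coding or lncRNA genes were not counted as a match.

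Compared with the 433 other regions, the shared coding sequence differed most, while small RNA and overlapping coding sequence were closer in frequency. A shared coding sequence was found in 16 of the 154 regions (10.4%) and in 1 of the 433 (0.231%), and small RNA sequence in 7 (4.55%) and 12 (2.77%). An overlapping coding sequence came up in 36 (23.4%) and 89 (20.6%), and no feature in 89 (57.8%) and 308 (71.1%). When words found in any number of genes were allowed, the shared coding sequence rose to 43 of the 154 (27.9%) and 73 of the 433 (16.9%). With 7SL RNA and any number of genes allowed, small RNA words from elsewhere occurred in 42 (27.3%) and 107 (24.7%).

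**Figure D1:**
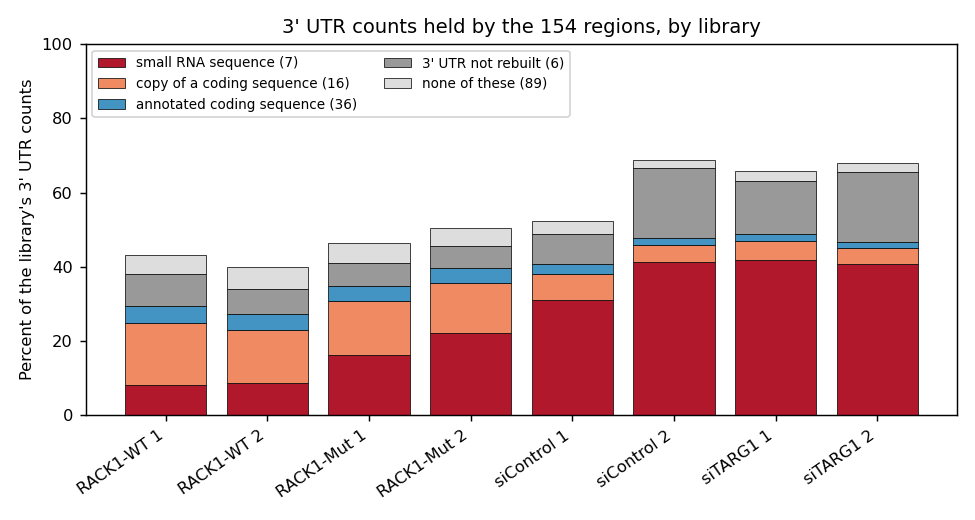
Stacked bars give the percentage of each library's 3′ UTR counts that fell in the 154 regions, divided by what the 3′ UTR holds, with the number of regions in brackets. The part with small RNA sequence runs from 8.17% in RACK1-WT replicate 1 to 41.7% in siTARG1 replicate 1, and the bars end between 39.9% and 68.6%.

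The share of a library's 3′ UTR counts that lay in the 154 regions was 43.3% and 39.9% in RACK1-WT, 46.3% and 50.5% in RACK1-Mut, 52.4% and 68.6% in siControl, and 65.7% and 67.8% in siTARG1 libraries. The 2 siControl libraries thus differed more from each other than either siTARG1 library did from siControl replicate 2. Nearly all of this spread came from the 6 regions with the most counts. Over the other 148 regions together, the 3′ UTR took between 14.9% and 16.4% of the regions' own counts in every library.

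TMC5, which encodes a transmembrane protein of the TMC family, had the most 3′ UTR counts of all regions in the series. Its 3′ UTR contains RNU4-46P (chr16:19509932-19510069, plus strand), an annotated copy of U4, the small nuclear RNA that pairs with U6 in the spliceosome. The copy is 138 bases long and matched RNU4-2 at 127 of 141 aligned positions (90.1%), with a longest identical run of 28 bases. The 3′ UTR counts were 2493 and 3021 in RACK1-WT, 4680 and 6520 in RACK1-Mut, 13949 and 22742 in siControl, and 26797 and 23607 in siTARG1 libraries. The coding sequence of TMC5 had 33 counts in all 8 libraries together. Both RACK1-Mut libraries lay above both RACK1-WT libraries, and all siRNA libraries above all RACK1 libraries.

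PLCG2, a phospholipase of immune receptor signalling, shared 99 words with 7SK, the RNA that holds the elongation factor P-TEFb inactive. It had 2178 counts in the 3′ UTR and 684 in the coding sequence, and no small RNA is annotated there. Scaled to the coding counts of all 8 libraries, its 3′ UTR rose from a mean of 141 in the RACK1 experiment to 426 in the siRNA experiment, while its coding counts were 2.67-fold lower in the second. The 3′ UTR and the coding sequence of PLCG2 thus moved in opposite directions between the experiments. Here and in what follows, a difference between the experiments is a description, since the cell lines, the treatment and the preparation of the libraries cannot be told apart.

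Some regions with small RNA sequence had fewer counts. TPT1, an abundant growth-related protein, holds the small nucleolar RNA SNORA31 in its 3′ UTR and had 1059 counts there against 5425 in the coding sequence. A short COX7C transcript, ENST00000509578, overlaps MIR3607, which the annotation lists as a small nucleolar RNA, and had 202 counts in the 3′ UTR and 0 in the coding sequence. ZNF354B, a zinc finger protein, holds RNU1-39P, a copy of U1 with 91.5% identity to RNU1-1, and had 130 counts. POLR2D, a subunit of RNA polymerase II, had 261 counts and shared only 2 words with SNORD3B-2, a U3 small nucleolar RNA.

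**Figure D2:**
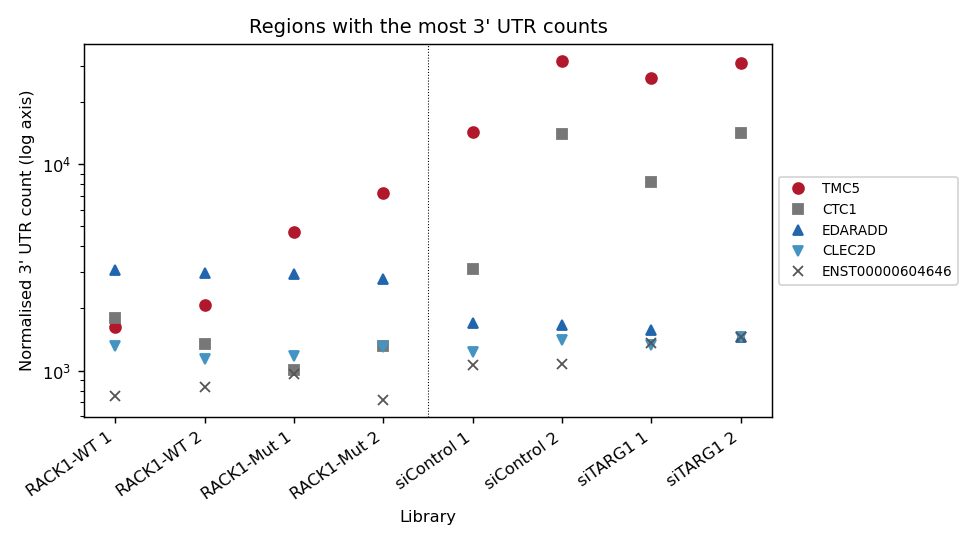
Points give the 3′ UTR counts of 5 of the 6 regions with the most counts in each library, divided by a size factor from the coding counts of the 8 libraries, on a log axis. The dotted line parts the RACK1 from the siRNA experiment. TMC5 lies between 1632 and 31606, whereas CLEC2D stays between 1135 and 1455.

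CTC1, a subunit of the CST complex that protects telomeres, came next to TMC5 with 39208 counts in the 3′ UTR and 684 in the coding sequence. Its 3′ UTR counts were 2735 and 1943 in RACK1-WT, 999 and 1190 in RACK1-Mut, 3027 and 10119 in siControl, and 8415 and 10780 in siTARG1 libraries. The siControl libraries lay far apart, with siControl replicate 2 at the level of siTARG1. The coding counts, by contrast, stayed between 59 and 111. Only 354 of the 3359 bases of this 3′ UTR were found in the later annotation, so its sequence was not examined. The region ENST00000604646 had 8283 counts, with 647 to 1396 in each library, and was not found in the later annotation either.

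EDARADD and CLEC2D carried the largest counts among regions with a copied coding sequence. EDARADD encodes an adaptor of the ectodysplasin receptor, and its 3′ UTR shared 266 words with ENO1, the glycolytic enzyme enolase, with a longest identical run of 95 bases. The 3′ UTR of EDARADD had 4699 and 4313 counts in RACK1-WT, 2900 and 2502 in RACK1-Mut, 1667 and 1201 in siControl, and 1612 and 1111 in siTARG1 libraries. Its coding sequence had 10 counts in all. The coding sequence of ENO1 had 42354, 38443, 24647 and 22887 counts in the RACK1 libraries, in the same order, and 14421, 11046, 14841 and 11059 in the siRNA libraries. The EDARADD count was 10.0% to 11.8% of the ENO1 count in every library. Scaled ENO1 counts were 1.77-fold higher and scaled EDARADD counts 1.84-fold higher in the RACK1 than in the siRNA experiment.

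CLEC2D, a ligand of a natural killer cell receptor, shared 226 words with NPM1, the nucleolar chaperone nucleophosmin. Its 3′ UTR had 2004, 1643, 1162 and 1170 counts in the RACK1 libraries and 1203, 1015, 1366 and 1109 in the siRNA libraries. These were 21.2% to 25.4% of the coding counts of NPM1, and its own coding sequence had 3 counts. After scaling, CLEC2D was 0.907 times and NPM1 1.00 times as high in the RACK1 as in the siRNA experiment. Like NPM1, CLEC2D showed little of the difference between experiments that EDARADD showed. Here and below, copy and source refer only to shared sequence, and where the reads came from was not tested.

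**Figure D3:**
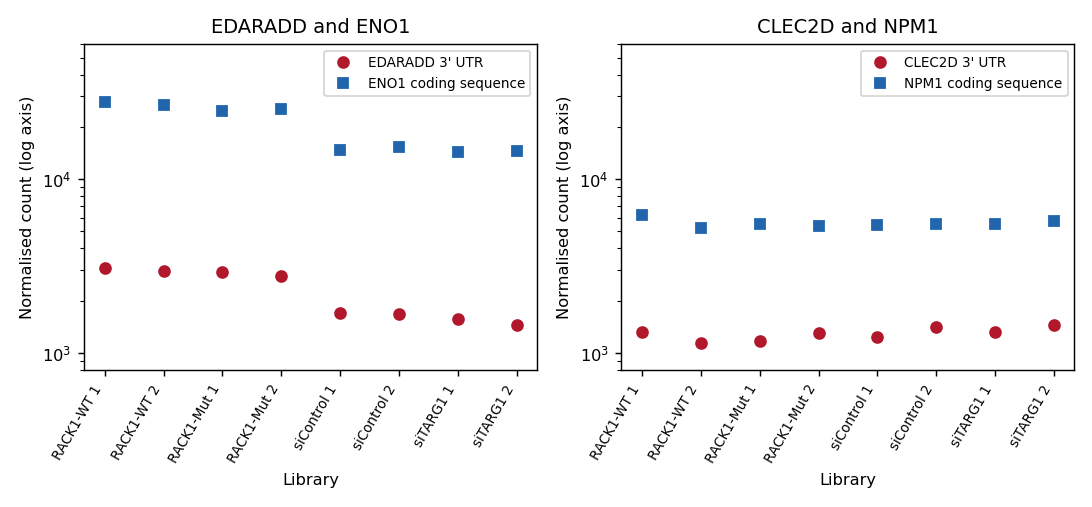
Points give, for each library, the scaled 3′ UTR count of EDARADD beside the coding count of ENO1 (left) and that of CLEC2D beside the coding count of NPM1 (right), on log axes. EDARADD and ENO1 are both lower in the 4 siRNA libraries, and CLEC2D and NPM1 stay level.

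The other copies had far fewer counts. The merged region of MAN2B1, a lysosomal mannosidase, and WDR83OS had 1857 counts and shared 64 words with the ribosomal protein gene RPL10. Its count was 7.65% to 10.7% of that of RPL10 by library, and both were 0.78 times as high in the RACK1 as in the siRNA experiment. The region's own coding counts were 0.81 times as high, close to both. TRMT5, a tRNA methyltransferase, had 1201 counts and shared 71 words with HMGN2, a nucleosome-binding protein. Here the ratio ran from 8.71% to 16.1%, less even than for EDARADD. ARF3, a small GTPase, had 949 counts and shared 16 words with RPL32, with a ratio of 4.33% to 8.93%. It was level between the experiments (1.02-fold) where RPL32 was 1.48-fold higher in the RACK1 experiment. Of the 16 copies, 5 had a ribosomal protein gene as source: besides RPL10 and RPL32 these were RPS20 in TMEM70, RPLP1 in TTC19 and RPL12 in ANKRD16. Smaller copies were PYURF in ICA1L, OSTC in LIG3 and PHB1 in the merged ZNF607 and ZNF781 region, with 219, 130 and 193 counts. POTEM and POTEG, which are near-identical and had 139 counts each, shared words with POTEE and POTEJ of the same family, so that reads cannot be placed among these genes. A correlation of a copy with its source across the libraries would rest on depth, which all counts of a library share, so it is not given.

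In 36 regions the 3′ UTR overlapped a sequence that the later annotation calls coding. CHTF8, a chromosome transmission fidelity factor, led them with 2562 counts in the 3′ UTR against 800 in the coding sequence. Its 3′ UTR of 2415 bases contained 1601 bases of coding sequence listed for DERPC and CHTF8. The 3′ UTR counts were 455, 420, 280 and 291 in the RACK1 libraries and 368, 288, 251 and 209 in the siRNA libraries. EIF1, the initiation factor that scans for start codons, had 1829 counts but an overlap of only 28 bases. KRT10, a keratin, had 655 counts against 149 in the coding sequence, and 97 bases of overlap with a KRT10 isoform. PALLD, an actin-binding protein, had 781 counts and 170 bases of overlap. In the region of NGRN, 1191 bases of TTLL13 coding sequence lay in the 3′ UTR, which had 612 counts. Over these 36 regions together the 3′ UTR took 16.04% to 20.1% of the counts in each library. For the 7 regions with small RNA sequence this was 71.0% to 97.9%, but TMC5 held 103809 of their 113637 counts. The wider range is thus mostly that of TMC5. Among the 7, scaled 3′ UTR counts differed between libraries by at most 1.92-fold in TPT1 and 19.4-fold in TMC5.

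The processed pseudogene ATP5F1EP2, a copy of a subunit of ATP synthase, was the only one of the 154 with a pseudogene biotype. It had 209 counts in the 3′ UTR and 1754 in its coding frame. Among ribosomal protein genes, RPL41 alone was a member, with 1728 3′ UTR counts, and 26 of the 433 other regions were ribosomal protein genes. No member was a replication-dependent histone gene and none was mitochondrial, whereas 12 of the 433 were histone genes.

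None of the genes on the lists of known readthrough, frameshift, second reading frame and selenoprotein genes was among the 154. Regions were found for 20 of 20, 4 of 5, 11 of 13 and 25 of 25 of these genes, and the 11 genes with a second reading frame lay in 10 distinct regions. Among readthrough genes, MDH1 had 90 counts in the 3′ UTR (0.561% of its counts) and LDHB 223 (0.478%), and these were the only ones with at least 50. VDR, the vitamin D receptor, had 24 counts and a share of 4.04%. Among selenoprotein genes MSRB1 had 50 counts and a share of 4.07%, and SELENOV a share of 21.2% from 31 counts. The stop TGA followed by CTA was found at 0 of the 150 members whose stop could be read, at 5 of 427 of the other regions and at 32 of 12741 regions with at least 10 coding counts. TGA itself ended 54.7%, 47.5% and 49.1% of the coding sequences in these sets, and the base after the stop was C in 30.7%, 20.6% and 22.0%.

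For readthrough, the room for footprints ends at the next stop in the same frame. If all 3′ UTR counts of a region lay between the stop and the next in-frame stop, their density there would be 10.6% of the coding density for MDH1 and 27.1% for LDHB. Of 140 members for which this could be computed, 85 would exceed 100%, that is, the density of their own coding sequence. The median was 214%. Among the 84 of these members in which no other feature was found the median was 116%, and 45 exceeded 100%. Only 14 members would lie under 20%, among them DYNLL2 (12.2%), a dynein light chain, RPL41 (10.4%), NFIC (6.79%), a transcription factor, and NCS1 (9.66%), a calcium sensor. Since share and density both use the counts that chose the members, their height is no finding. What was not used is the length of the extension, with a median of 19.5 codons in members, 23 in the 433 other regions and 18 in regions with at least 10 coding counts.

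**Figure D4:**
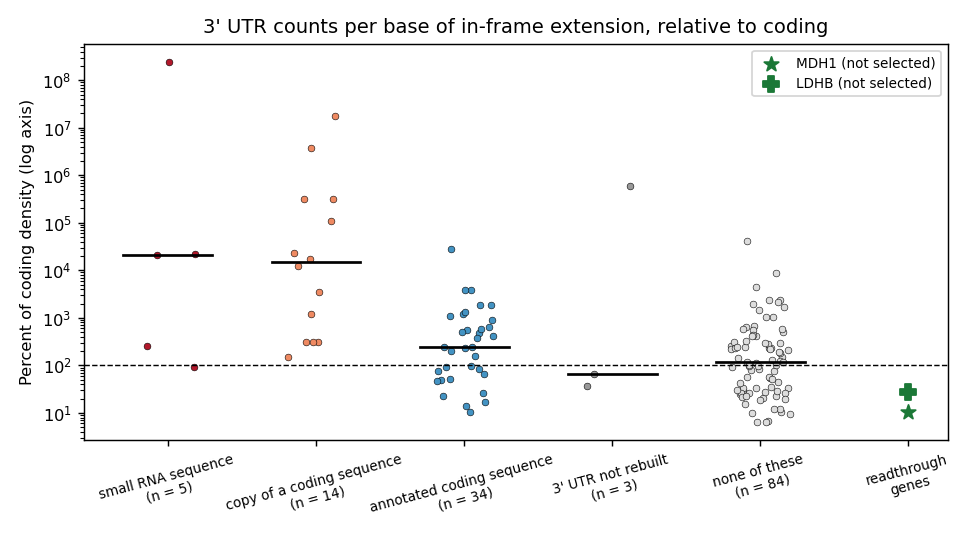
Each point is one region. The vertical log axis gives the density that all its 3′ UTR counts would have in the in-frame extension, as a percentage of its coding density, and columns are the kinds of 3′ UTR described in the text, with medians as bars. The dashed line marks 100%, and MDH1 and LDHB lie below it at 10.6% and 27.1%.

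Members had shorter coding sequences, with a median of 568.5 bases against 681 in the 433 other regions and 1422 in regions with at least 10 coding counts. Their 3′ UTRs were longer, with a median of 1708 bases against 1147 and 1161. Most of the gap in coding length was thus shared with the other regions that had at least 50 counts in the 3′ UTR. At equal densities a short coding sequence and a long 3′ UTR raise the share that the rule used. These lengths are therefore partly built in by the rule.

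Among the 89 regions in which nothing was found, TNPO2, PTPA and CTDSP2 were named after their values were seen. RPL41 and TMA7, a protein associated with the translation machinery, are in this group too, although 49.0% and 37.9% of their 3′ UTR words occur in a transcript of another gene. TMEM237 shared 9 words with ENO1, just under the 10 asked for. TNPO2, a nuclear import receptor, had 158 and 188 counts in RACK1-WT, 84 and 71 in RACK1-Mut, 21 and 10 in siControl, and 21 and 19 in siTARG1 libraries. After scaling, its 3′ UTR was 4.92-fold higher in the RACK1 experiment, whereas its coding counts were 1.93-fold higher in the siRNA experiment. The 3′ UTR counts of the RACK1 libraries all lay above those of the siRNA libraries. PTPA, an activator of protein phosphatase 2A, had 33 to 85 counts in each library, and CTDSP2, a phosphatase of the RNA polymerase II tail, had 41 to 85.

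**Figure D5:**
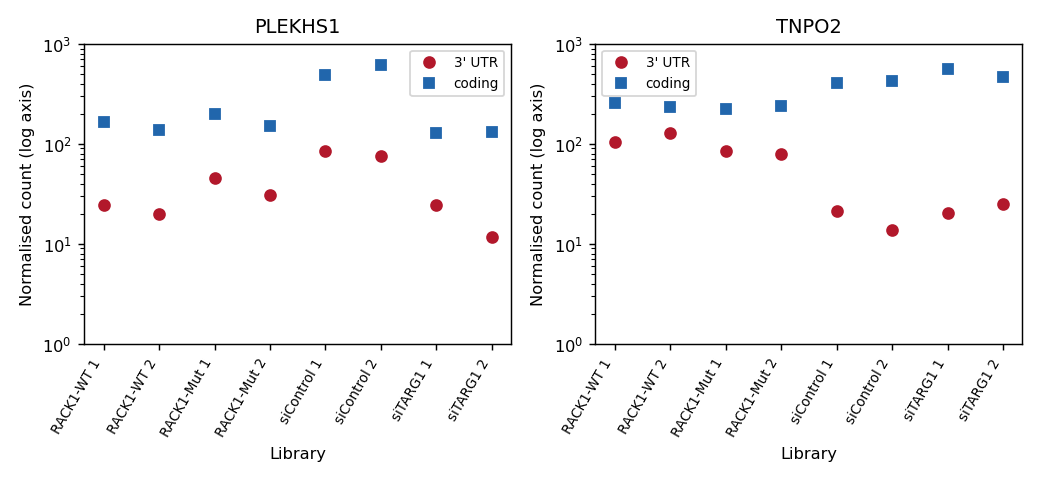
Points give scaled 3′ UTR and coding counts of PLEKHS1 and TNPO2 in each library, on log axes. Both kinds of count of PLEKHS1 are lower in siTARG1 than in siControl libraries, and the 3′ UTR counts of TNPO2 are 4.92-fold higher in the RACK1 experiment. TNPO2 was picked after its values were seen, and the rule used these same counts.

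Within each experiment, 3′ UTR counts were compared by DESeq2 with size factors from coding counts, over all regions with at least 10 counts in the 3′ UTR in the 4 libraries. Footprint counts do not separate a change in mRNA from a change in translation. In RACK1-Mut against RACK1-WT, 1 of the 154 members tested was called at an adjusted p under 0.05, and it was the only call among 1912 regions (0.0523%). That member was TMC5. Scaled within the experiment, its counts were 1927 and 2468 in RACK1-WT and 5583 and 8595 in RACK1-Mut libraries, with a log2 fold change of 1.69 (SE 0.283, DESeq2 adjusted p = 4.45e-06). Its coding counts were too few to compare, at 5 to 10 in each library. Without RACK1-Mut replicate 2 the log2 fold change of TMC5 was 1.35 and the adjusted p of the DESeq2 fit 0.257. The median log2 fold change was 0.09 over the members and -0.01 over all regions tested. CTC1, EDARADD, CLEC2D and ENST00000604646 had adjusted p-values of 1.00 in this DESeq2 fit, with log2 fold changes from -0.42 for CTC1 to 0.09 for ENST00000604646.

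In siTARG1 against siControl, 152 members had enough counts to be tested, and 1 was called, again the only call among 1795 regions (0.0557%). PLEKHS1 encodes a protein with a pleckstrin homology domain, and 176 bases of its 3′ UTR are coding in another PLEKHS1 isoform. It had 83 and 54 counts in siControl and 25 and 9 in siTARG1 libraries. Its log2 fold change was -2.12 (SE 0.465, DESeq2 adjusted p = 0.00933), and the groups did not overlap. The coding counts of PLEKHS1 fell by nearly the same amount, from 474 and 445 to 132 and 100, with a log2 fold change of -2.09 (SE 0.193, DESeq2 adjusted p = 8.04e-25). The call on its 3′ UTR was lost when any library was left out (log2 fold change -2.76 to -1.72), when a term for the replicate number was added (log2 fold change -2.21, adjusted p = 0.996 by DESeq2) and under most other settings. TMC5 had 12260 and 27109 scaled counts in siControl and 22305 and 26547 in siTARG1 libraries, so the groups overlapped (log2 fold change 0.31, SE 0.621). CTC1 likewise overlapped, at 2660 and 12062 against 7004 and 12123. At an unadjusted p under 0.05 there were 8 of 152 members (5.26%) and 1.95% of all regions tested. The median log2 fold change was 0.07 over the members and 0.00 over all regions tested.

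The 3′ UTR counts were then set against the coding counts of the same region and library. No member was called, among 145 tested in the RACK1 and 140 in the siRNA comparison, nor was any of the 1879 and 1766 regions tested (0%). At an unadjusted p under 0.05 of this DESeq2 fit there were 0 and 1 members (0% and 0.714%), against 1.22% and 1.76% of all regions tested. With edgeR, too, no region was called. This fit recovered 0% of the regions changed by a log2 fold change of 2 in simulated data, so a count of 0 says nothing about the members. A DESeq2 fit with the coding count as offset, chosen after the data were seen, recovered 71% and 64% of such regions. It also called none of 1842 and 1725 regions (0%). The spread between simulated libraries was fixed and not taken from these data. Recovery can therefore be lower for the members, and these 0 calls do not show that they were unchanged. The log2 fold change of PLEKHS1 relative to its coding counts was -0.12 (SE 0.901) in the siRNA comparison.

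On coding counts, no member was called in RACK1-Mut against RACK1-WT, of 145 tested and with 10 calls among 12520 regions (0.0799%). At an unadjusted p under 0.05 there was 1 member in this DESeq2 fit (0.690%), against 1.64% of all regions, and edgeR called 0 members and 25 regions in all. In siTARG1 against siControl, 19 of 142 members tested were called (13.4%), 4 higher and 15 lower, against 16.4% of 12056 regions, 7.18% higher and 9.19% lower. The share of members called was thus near that of all regions. Besides PLEKHS1, the strongest falls by adjusted p were in SRSF8, a splicing factor, GCNT2, which makes the branched I blood group sugar, and CHTF8. SRSF8 fell from 182 and 136 counts to 73 and 58 (log2 fold change -1.36, SE 0.271, DESeq2 adjusted p = 1.32e-05). GCNT2 fell from 35 and 44 to 4 and 5 (log2 fold change -3.24, SE 0.724, DESeq2 adjusted p = 1.37e-04). CHTF8 fell from 132 and 106 to 58 and 39 (log2 fold change -1.39, SE 0.313, DESeq2 adjusted p = 1.66e-04), and its 3′ UTR had a log2 fold change of -0.59 (SE 0.287), which was not called. The other 11 that fell, by log2 fold changes of -0.45 in SEC14L1 to -1.45 in TCAIM, were ARF3, C19orf53, CIRBP, IDI1, MEIS1, PTPA, SEC14L1, TCAIM, TMEM167A, TPT1 and TRIAP1.

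The members with higher coding counts in siTARG1 cells were DYNLL2, TMEM237, NXPH4 and HLA-G. DYNLL2 rose from 211 and 173 counts to 448 and 275 (log2 fold change 0.81, SE 0.185, DESeq2 adjusted p = 2.16e-04). TMEM237, a protein of the ciliary transition zone, rose from 47 and 38 to 134 and 89 (log2 fold change 1.30, SE 0.331, DESeq2 adjusted p = 0.00121), while its 3′ UTR had 36 and 23 against 29 and 21 counts. NXPH4, a secreted neurexophilin, rose from 55 and 26 to 105 and 74 (log2 fold change 1.09, SE 0.369, DESeq2 adjusted p = 0.0225). HLA-G, a class I histocompatibility gene whose reads can be shared with its relatives, rose from 198 and 125 to 302 and 209 (log2 fold change 0.59, SE 0.203, DESeq2 adjusted p = 0.0265). With a term for the replicate number, 10 members were called (9.33% of all regions), all among the 19, and NXPH4 and HLA-G were lost. Leaving out any library left 2 to 7 calls (1.42% to 4.96% of members tested), while calls over all regions fell to between 4.79% and 6.26%.

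Of 38 genes of termination, recycling, surveillance and ribosome rescue, 37 were measured on coding counts, in 36 distinct regions since DDX19A and DDX19B share one, and none was among the 154. In RACK1-Mut against RACK1-WT none of the 36 regions was called by DESeq2. In siTARG1 against siControl 6 were called, a share near the 16.4% of all regions. ABCE1, which splits the ribosome after termination (log2 fold change 0.58), LTN1, a ligase of ribosome quality control (0.49), PABPC4, a poly(A)-binding protein (0.90), and UPF3A, a factor of nonsense-mediated decay (0.91), rose. MCTS1, which helps to release the small subunit (-0.61), and PABPC1, the main cytoplasmic poly(A)-binding protein (-0.34), fell. The largest 3′ UTR share on this list was 2.71%, in N6AMT1, which methylates the release factor.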

How the data were processed

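The deposited values were whole-number counts of footprints for the exons, 5′ UTR, coding sequence and 3′ UTR of each region, made by the authors with Plastid on GENCODE release 24 (hg19, GRCh37). Per the file headers, reads of 26 to 36 nt were assigned to the base 14 nt from the 5′ end, and the methods give a 3′ offset instead. The submitters' processing notes name TopHat2 2.1.1 and Bowtie 1.1.2. Reads were aligned to transcripts only with up to 64 hits allowed, so a read of a repeated sequence can count in more than one region, and whether reads with the same molecular identifier were collapsed is not stated. The deposited RPKM columns were not used.

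Symbols, 3′ UTRs, small RNAs and coding sequences came from GENCODE release 44 lifted to GRCh37, which named 152 of the 154 members and gave the deposited 3′ UTR length in 70. Words of 26 bases were matched on the sense strand with Python 3.11 and pysam. Matches to 7SL RNA were left out. A 3′ UTR with under 80% of its length found was set apart as not rebuilt.

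The study's methods name DESeq2, and DESeq2 1.42.0 was the main test (Wald, adjusted p under 0.05, at least 10 summed counts, 2 libraries per group). edgeR 4.0.16 and the other settings of the closing section were alternatives. In simulated counts with 200 changed regions, the test on 3′ UTR counts recovered 21% (RACK1, 1981 regions) and 19% (siRNA, 1882 regions) of regions at a log2 fold change of 1, and 74% at 2 in both. For the test against coding counts these were 0% and 0% (1946 and 1852 regions), and with the coding count as offset, 10% and 17% at 1 (1906 and 1812 regions). The simulated spread between libraries was the same for all regions and was not estimated from these data. Only regions with at least 50 3′ UTR counts in the libraries of the experiment were changed. The rates can therefore be higher than for the members.

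Members, gene lists and kinds of 3′ UTR were chosen with earlier results of these data known. Named members were the 10 with most counts, the 3 with most in each annotation class, those on the lists, up to 4 called per test and direction, and those next to each threshold. Members of the kinds of 3′ UTR named beyond these were chosen after their values were seen. RNA-seq, tRNA genes and GENCODE release 24 were not analysed here, and some members are not reported here.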

Additional observations from a re-analysis of the deposited data

How the results depend on the processing

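The rule gave 154 members, and 87 with at least 100 counts, 96 with a share of at least 0.10, 168 in the RACK1 and 146 in the siRNA libraries alone with at least 25 counts (110 in both, 65.5% and 75.3% of these lists), and 133 to 146 without 1 library. The call of TMC5 in RACK1-Mut held in every setting but one: without 1 library there were 0 to 1 members called, 0 of them without RACK1-Mut replicate 2. The call of PLEKHS1 in siTARG1 held with edgeR and at an adjusted p under 0.1. With 3′ UTR size factors, TMM factors, no count filter, all 8 libraries in one fit, and a replicate block, 0 members were called. Asking for 10 counts in every library removed PLEKHS1 before the test, and 0 of the 65 members left were called. Without 1 library 0 to 1 were called, and the 1, without siControl replicate 2, was CTC1, higher in siTARG1. For coding counts in siTARG1, 19 members were called in the main fit, 34 with edgeR, 28 with all 8 libraries (23.2% of all regions), 10 with the replicate block, and 2 to 7 without 1 library (4.79% to 6.26% of all regions). edgeR called 28.7% and the replicate block 9.33% of all regions. The 0 calls of the other tests on members stayed at 0 with the replicate block and without any 1 library. The cause of these changes was not tested.

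Same-numbered libraries had correlated deviations that were small (correlation across 7310 regions 0.116 in RACK1, across 6182 regions 0.0341 in siRNA; on 3′ UTR counts, across 38 regions 0.226 and across 31 regions 0.0688), and with 2 pairs the numbers were not taken to pair the libraries. A log2 fold change of 1 in the 3′ UTR was mostly missed at this depth in simulated data.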
